A study of Canis lupus familiaris with 28 samples.

Results

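TNF (ENSCAFG00000000517) and LTA (ENSCAFG00000000515) were described across the libraries of a study of histiocytic sarcoma (HS) in dogs. The members were chosen by gene symbol as AIF1, TNF, LTA, LTB and LST1, and a gene was kept where the supplementary tables of the study pair its symbol with an Ensembl identifier. As read here, these tables name 1126 of the 32704 identifiers counted, and they pair 2 of the 5 members, TNF and LTA. This is fewer than the annotated genes that the study reports as differing, so the full tables may name more. AIF1, which encodes the histiocyte protein IBA1, LTB and LST1 were not paired in the part read, and their levels are not analysed here. The rule itself uses no level of TNF or LTA, but the members were chosen with earlier results of these data known.

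RNA was sequenced from 18 tumors of Bernese Mountain Dogs (BMDs), 15 labelled HS and 3 labelled HHS, the hemophagocytic form. The controls were blood of 3 unaffected BMDs and 1 sample each of the spleen, lung and liver of German Shepherd Dogs (GSDs). The HS cell lines BD and OD (BMD) and PJ (Rottweiler) were sequenced beside DC3F9, with 1 library each. DC3F9 is a strain of dendritic cells grown from monocytes of 1 mongrel dog with the cytokines GM-CSF and IL-4. Its label marks the cells as unstimulated. The tumors were taken from lung (6), liver (4), the thorax or a thoracic mass (3), spleen (2), a leg or shoulder (2) and a lymph node (1). Blood was sequenced on a flow cell of its own, apart from that of tumors and organs, and it differs from the organs in tissue and breed as well, so these cannot be told apart. The study left the liver control out of its tumor comparison, and the same was done here.

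TNF is a cytokine released mostly by activated macrophages, dendritic cells and T cells, and it starts NF-kB signalling and inflammation through its receptors on the target cell. LTA, or lymphotoxin alpha, is a close relative made mostly by B and T lymphocytes, which acts through the same receptors as a secreted trimer or joins LTB at the cell surface to organise lymphoid tissue. Both genes lie in the class III region of the major histocompatibility complex. In the RefSeq annotation of the dog assembly UU_Cfam_GSD_1.0, which is not the build of the counts, there were 0 genes between LTA and TNF, LTB and LST1 followed TNF, and 3 protein-coding genes separated TNF from AIF1.

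The tumors held totals of 99701394 to 171815073 counts, the control tissues 133524755 to 180801439, and the cells 82007857 to 131518875. Levels are given in CPM, the count of a gene scaled to the total of its library, at which 3 counts equal 0.0166 to 0.0366 CPM, and both genes were above this level in all 28 libraries. In the controls the marker lists fitted the labels of the organs. AGER, a gene of lung epithelium, was at 1982 CPM in the lung control and at most 23.7 CPM in the other controls. The 5 hepatocyte genes summed to 6472 CPM in the liver control and at most 15.7 CPM in the other controls. In the tumors the hepatocyte sum did not follow the site, with medians of 507.5 CPM in lung tumors and 237.8 CPM in liver tumors. AGER had medians of 10.5 and 4.72 CPM there. Summed CPM of 6 myeloid genes was 1075 to 7466 in the tumors and 739 to 1333 in the HS cell lines. In whole tissue, fewer cells of a type and less RNA per cell cannot be told apart.

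TNF was detected in every tumor, but its level differed widely among them. TNF was lowest at 0.69 CPM in HS4, a thoracic mass, had a median of 15.6 CPM, and was highest at 83.3 CPM in HS37, a tumor of the thorax. The highest tumor was 121 times the lowest. After HS37, the highest tumors were HS39 from the shoulder at 35.4 CPM, HS52 from the lung at 28.6 CPM and HS41 from a lymph node at 27.2 CPM. HS53 and HS35, both from the lung, were at 3.35 and 3.55 CPM. The SD over the tumors was 1.64 on the log2 CPM scale, and an SD at least this large was found for 9.03% of the 12497 genes with a mean of at least 0 log2 CPM, whose median SD was 0.795.

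LTA had fewer counts than TNF in 17 of the 18 tumors, without a correction for gene length. LTA ranged from 0.178 CPM in HS53 to 8.37 CPM in HS50, a liver tumor, with a median of 1.43 CPM. HS37 followed at 2.63 CPM, then HS46 at 2.62 CPM and HS39 at 2.51 CPM, so HS50 stood apart at the upper end. The low end was shared by HS53, HS14 at 0.289 CPM and HS35 at 0.323 CPM. The SD of LTA was 1.40 on the log2 CPM scale, reached by 14.6% of the same genes. In HS53, the lowest library among the tumors, LTA still had 25 counts.

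**Figure D1:**
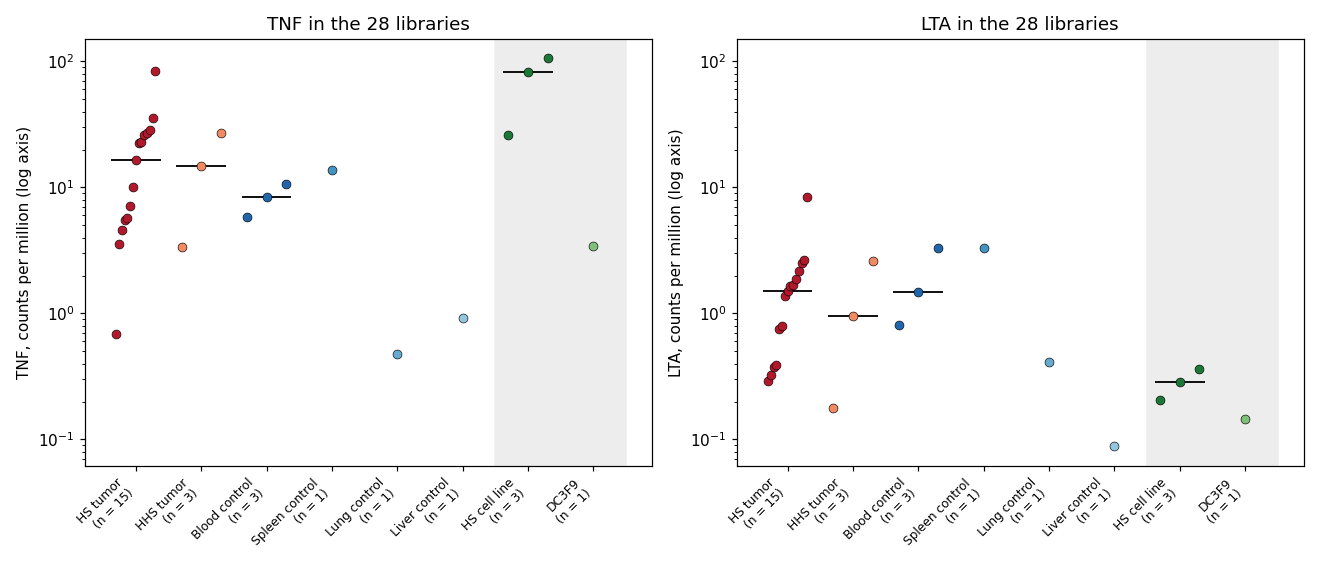
TNF (left) and LTA (right) in CPM on a log axis, 1 point per library, with a line at the median of each group of more than 1 library; the shaded cell libraries come from a separate count table. TNF spans 0.69 to 83.3 CPM in the tumors and 26.3 to 106 CPM in the HS cell lines, while LTA stays at or below 0.365 CPM in all cell libraries.

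The number of TNF counts per LTA count put the 2 genes side by side within a library. It was 0.316 in HS4, 58.1 in HS36 and 14.0 at the median of the tumors. HS4 was the only tumor with more LTA than TNF counts, 310 against 98, and its LTA level of 2.18 CPM was among the higher ones. The blood controls had 3.23, 3.93 and 10.4 TNF counts per LTA count, the spleen control 4.17, the lung control 1.17 and the liver control 10.4. Tumors and the 5 controls overlapped, and the mean log2 of this ratio was 3.43 ± 1.71 (SD, n = 18) in the tumors and 1.87 ± 1.12 (SD, n = 5) in the controls (two-sided exact permutation test, p = 0.09, Benjamini-Hochberg adjusted p = 0.474 over 15 tests).

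Across the 18 tumors, TNF and LTA in log2 CPM had a Pearson r of 0.39 (permutation test, p = 0.115) and a Spearman rho of 0.51 (permutation test, p = 0.0314). This was 1 relation, so no adjustment applied. Without HS4 and HS37, the tumors farthest from the median TNF level, r was 0.62 and rho was 0.61. Over all 18 tumors rho was above r, a difference that was not tested. HS4, low in TNF and high in LTA, lay farthest from the other tumors.

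**Figure D2:**
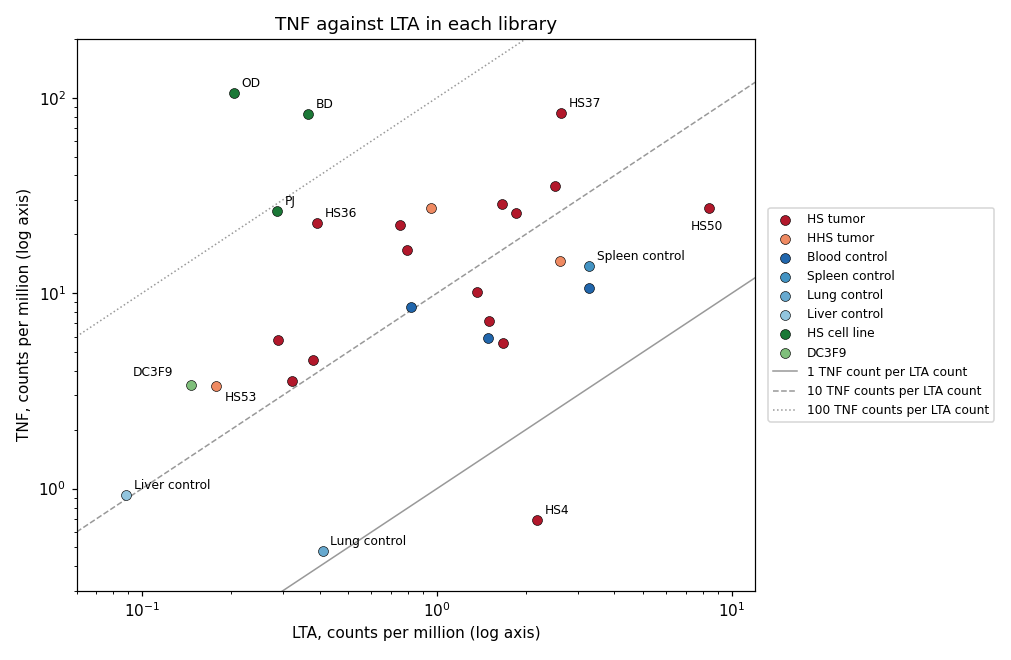
TNF against LTA in CPM, both on log axes, 1 point per library; the lines mark 1, 10 and 100 TNF counts per LTA count. HS4 is the only library below 1 TNF count per LTA count (0.316), and BD and OD lie above 100 (226 and 517).

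Levels by site and tissue followed a different order for each gene. By median TNF, the order was the lymph node tumor (27.2 CPM), liver tumors (24.4), limb tumors (22.7), spleen tumors (14.0), the spleen control (13.7), blood (8.48), lung tumors (5.87), thoracic tumors (5.74), the liver control (0.924) and the lung control (0.481). Down to the thoracic tumors, each neighbouring pair in this order either overlapped or differed by less than the range of the larger group. The liver and lung controls were below 17 and 18 of the 18 tumors. For LTA, the order by median was the spleen control (3.29 CPM), liver tumors (2.24), thoracic tumors (2.18), limb tumors (1.94), blood (1.49), spleen tumors (1.21), the lymph node tumor (0.958), lung tumors (0.584), the lung control (0.41) and the liver control (0.0885). Down to the lung control, neighbours in this order overlapped or lay inside each other's range, and the liver control was below every other library of the 28 when scaled to library totals.

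The study's central comparison asks which genes differ between HS tumors and non-neoplastic tissue. TNF was 5.87, 8.48 and 10.6 CPM in the 3 blood controls, 13.7 CPM in the spleen control and 0.481 CPM in the lung control. The controls thus spanned a 28.5-fold range with the lung control far below the others, and 10 of the 18 tumors were above all 5 controls while none was below all 5. The log2FC of TNF in tumors against the 5 controls was 1.44 (SE 0.80, 95% confidence interval -0.20 to 3.09), or 2.72-fold, and did not pass (adjusted p = 0.181, edgeR quasi-likelihood test). A call needed a log2FC beyond 1.5 in either direction with an adjusted p under 0.0005, which 2.77% of the 19430 genes tested reached, and a log2FC at least that of TNF was found for 14.3% of them.

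LTA had a log2FC near 0 in this comparison. It was 1.49, 0.816 and 3.28 CPM in blood, 3.29 CPM in the spleen control and 0.41 CPM in the lung control. HS50 was the only tumor above all 5 controls, and 5 tumors were below all of them. The log2FC was -0.02 (SE 0.67, 95% confidence interval -1.40 to 1.35) with an adjusted p of 0.984 (edgeR quasi-likelihood test). Its sign changed with single controls, to 0.26 without the blood control with the highest LTA and to 0.25 without the spleen control. A change of LTA within this interval could not be detected with these controls.

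Split by control tissue, TNF had a positive log2FC in both fits, while the value of LTA depended on single controls. Against blood, the log2FC of TNF was 1.30 (SE 0.93, adjusted p = 0.282, edgeR quasi-likelihood test) and that of LTA was -0.07 (SE 0.80, adjusted p = 0.952, edgeR quasi-likelihood test), and neither was among the 6.15% of 20353 genes called. In TNF, 10 tumors were above and 6 below the range of blood. The median log2FC of all genes against blood was 0.44. Without a model, the difference in mean log2 CPM of TNF against blood was 0.54 (two-sided exact permutation test, p = 0.544, adjusted p = 0.833). Against the spleen and lung controls, the log2FC of TNF was 1.65 (SE 1.29, adjusted p = 0.458, edgeR quasi-likelihood test) and that of LTA was 0.03 (SE 1.03, adjusted p = 0.991, edgeR quasi-likelihood test), and neither was among the 1.03% of 21533 genes called. These 2 organs differed so much that the log2FC of TNF was 5.64 with the spleen control left out and 0.75 with the lung control left out. For LTA the same omissions gave 2.31 (SE 1.71) and -0.76 (SE 1.27), and against blood, single blood controls moved it from -0.40 to 0.46. The comparisons share the same 18 tumors.

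Cell markers differed between these groups beside TNF and LTA. The 6 T and NK cell genes summed to 617 to 1097 CPM in blood, 246 CPM in the spleen control, 35.5 CPM in the lung control and 14.7 to 243 CPM in the tumors, with all 6 genes detected in each group. The 2 genes of the B cell list, TNFRSF13C and HLA-DOB, summed to 44 to 167 CPM in blood, 109.8 CPM in the spleen control, 6.94 CPM in the lung control and 1.09 to 37.6 CPM in the tumors. HLA-DOB, an MHC class II gene, made up 11.7 to 99.0% of this sum in the tumors, with a median of 80.1%. The 6 myeloid genes summed to 9907 to 13350 CPM in blood, 1579 CPM in the spleen control and 508.5 CPM in the lung control, beside the 1075 to 7466 CPM of the tumors. Of these 6 genes, 5 were lower in tumors than in blood at an unadjusted p under 0.05 (edgeR quasi-likelihood test), and 0 were called. Of all 20353 genes tested against blood, 3317 were lower at this p. Against spleen and lung, all 6 had a positive log2FC with 0 called, beside 11315 of all 21533 genes with a positive log2FC. The part of these differences in the TNF and LTA comparisons was not tested.

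**Figure D3:**
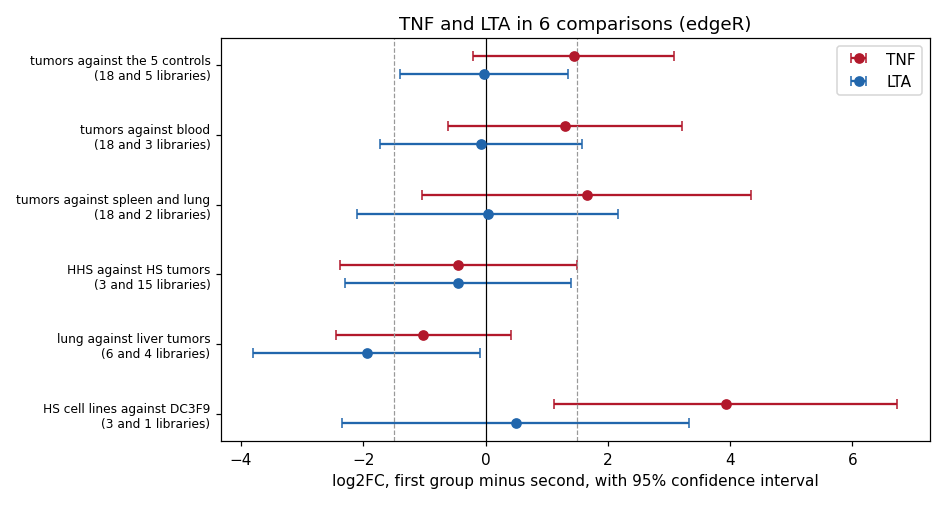
log2FC of TNF (red) and LTA (blue) with 95% confidence intervals in 6 comparisons by edgeR, with dashed lines at an absolute log2FC of 1.5. The intervals of TNF in HS cell lines against DC3F9 (1.12 to 6.73) and of LTA in lung against liver tumors (-3.80 to -0.09) do not hold 0, and neither has an adjusted p under 0.05.

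Tumors were also set beside the control organ of their own site, with values only, since each organ control is 1 library. The share of all genes with every tumor of a site on 1 side of its control was not counted. All 6 lung tumors (3.35 to 28.6 CPM) were above the lung control (0.481 CPM) in TNF, and all 4 liver tumors (14.7 to 27.2 CPM) were above the liver control (0.924 CPM). Of the 2 spleen tumors, HS29 at 22.4 CPM was above the spleen control (13.7 CPM) and HS51 at 5.56 CPM below it. TNF in the spleen control was thus at the level of many tumors, while TNF in the lung and liver controls was not. Of the myeloid sums, the 1579 CPM of the spleen control also lay inside the tumor range, while the 508.5 CPM of the lung control and 64.7 CPM of the liver control lay below every tumor. Their part in the TNF values was not tested. LTA was above the liver control (0.0885 CPM, 16 counts) in all 4 liver tumors, at 0.393, 1.86, 2.62 and 8.37 CPM, and below the spleen control (3.29 CPM) in both spleen tumors, at 0.752 and 1.68 CPM. In the lung, 3 of 6 tumors were above the control in LTA. The liver control has a TMM factor of 0.342, against 0.777 to 1.30 in the other tissue libraries, so that with TMM scaling its TNF was 2.7 CPM and its LTA 0.259 CPM, and all 4 liver tumors were still above it in both.

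Tumors of the lung were compared with tumors of the liver, the sites with 4 or more tumors. LTA had a lower median in the lung tumors, with a lowest, median and highest of 0.178, 0.584 and 1.66 CPM against the 4 liver values above. The ranges overlapped through HS36, whose LTA of 0.393 CPM was the lowest of the liver tumors, and 3 lung tumors lay below all 4 liver tumors. The log2FC of LTA was -1.94 (SE 0.85, unadjusted p = 0.0416, adjusted p = 0.968, edgeR quasi-likelihood test), and it was -0.97 without HS50. The log2FC of TNF was -1.02 (SE 0.66, adjusted p = 1, edgeR quasi-likelihood test), with 4 of 6 lung tumors below all 4 liver tumors. The exact permutation tests gave p = 0.105 for LTA and p = 0.0857 for TNF, both with an adjusted p of 0.474 (two-sided). No gene was called in this comparison (0% of 17671), 907 had an unadjusted p under 0.05, and DESeq2 called 99. TNFRSF13C and HLA-DOB summed to 1.09 to 8.53 CPM in the lung tumors and 5.71 to 37.6 CPM in the liver tumors, and their part in the LTA values was not tested.

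The HHS tumors did not stand apart from the HS tumors in either gene. TNF was 27.2, 14.7 and 3.35 CPM in HS41, HS46 and HS53, and LTA was 0.958, 2.62 and 0.178 CPM. These values lay inside the range of the 15 HS tumors, except LTA in HS53, the lowest of all. The log2FC in HHS against HS was -0.44 for TNF (SE 0.93, 95% confidence interval -2.38 to 1.49) and -0.45 for LTA (SE 0.89, 95% confidence interval -2.30 to 1.40), with adjusted p values of 0.971 and 0.967 (edgeR quasi-likelihood test). Both turned positive without HS53, to 0.04 and 0.07. HS37, highest in TNF, is labelled HS but is not in the study's own list of HS tumors, and without it the log2FC of TNF was -0.09. No gene was called (0% of 19853), 797 had an unadjusted p under 0.05, and DESeq2 called 1.

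LTA was correlated with the summed B cell genes across the 18 tumors, and with the T and NK cell sum by r only. TNF passed no such test. Levels of each gene were correlated in log2 CPM with the summed markers of 4 cell types, which gave 8 relations. LTA and the sum of HLA-DOB and TNFRSF13C had r = 0.83 (permutation test, adjusted p = 0.00016) and rho = 0.81 (permutation test, adjusted p = 0.00128), and r was 0.74 without HS50 and HS53. Taken one by one, which gave 4 relations, LTA and HLA-DOB had r = 0.75 (permutation test, adjusted p = 0.00148) and rho = 0.75 (permutation test, adjusted p = 0.00212), with r = 0.66 without HS50 and HS53. LTA and TNFRSF13C, the receptor of B cells for the survival factor BAFF, had r = 0.22 (permutation test, adjusted p = 0.717) and rho = 0.24 (permutation test, adjusted p = 0.523), with r = 0.37 without the same 2 tumors. The relation with the sum was thus not shown for TNFRSF13C alone. HS46, HS50 and HS39 were at the upper end of LTA with 36.2, 35.7 and 22.6 CPM of HLA-DOB and 1.40, 0.350 and 3.09 CPM of TNFRSF13C. HS36 had 4.55 CPM of TNFRSF13C but 1.16 CPM of HLA-DOB, and its LTA was 0.393 CPM. HS37 had 4.43 CPM of HLA-DOB and the next LTA level after HS50, and HS51 had 30.4 CPM of HLA-DOB and 1.68 CPM of LTA. Dendritic cells can also express HLA-DOB, so that its level does not give the share of B cells. LTA and the summed T and NK cell genes had r = 0.69 (permutation test, adjusted p = 0.00556) and rho = 0.53 (permutation test, adjusted p = 0.0956), and r was 0.58 without the same 2 tumors. This sum holds GRAP2, also found in OD, PJ and DC3F9, so it does not give the share of T and NK cells. The T and NK cell genes were not correlated one by one, so HLA-DOB cannot be ranked against them. TNF had adjusted p values of at least 0.363 with all 4 sums, T and NK, B, myeloid and antigen-presenting cells (permutation test), and its r was 0.07 with HLA-DOB and 0.16 with TNFRSF13C (permutation test, adjusted p = 0.774 and 0.717). The difference between the correlations of LTA and TNF was not tested.

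**Figure D4:**
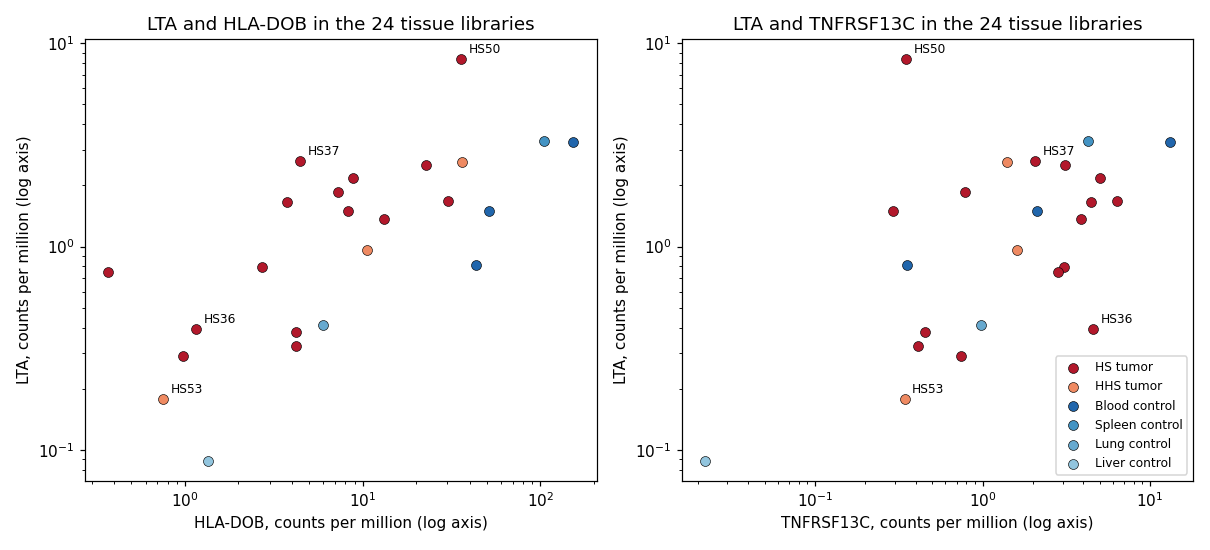
LTA against HLA-DOB (left) and against TNFRSF13C (right) in the 24 tissue libraries, 1 point per library, all in CPM on log axes. Over the 18 tumors LTA is higher where HLA-DOB is higher (r = 0.75 on the log2 scale), and for TNFRSF13C r is 0.22, with HS50, highest in LTA, at 0.350 CPM.

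Among 809 named genes with a mean of at least 0 log2 CPM in the tumors, those most like TNF were PDGFB, a platelet-derived growth factor chain (rho 0.71, r 0.64), ETV7, an ETS-family transcription factor (rho 0.66, r 0.60), and ZNF608, a zinc finger gene (rho 0.61, r 0.54). Over all 24 tissue libraries, rho was 0.49, 0.70 and 0.44 for these 3. Those most like LTA were ETV7 (rho 0.87, r 0.89), RUFY1, an adaptor of endosomes (rho 0.85, r 0.69), and IFGGC1 (rho 0.85, r 0.80), and rho over the 24 libraries was 0.63, 0.83 and 0.80. ETV7 stood in both lists. As the highest of 809, these values are a description, and the libraries share their depth and cell content.

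The HS cell lines OD and BD held the highest TNF levels of the series beside HS37. BD was at 82.2 CPM, OD at 106 CPM and PJ at 26.3 CPM, against 3.40 CPM in the unstimulated DC3F9. All 3 lines were above DC3F9, as they were for 46.3% of the 18121 genes tested, since the control is 1 library, assumed to vary like the lines. The log2FC of TNF was 3.93 (SE 1.08, 95% confidence interval 1.12 to 6.73), or 15.2-fold, with an unadjusted p of 0.016 and an adjusted p of 0.221 (edgeR quasi-likelihood test). TNF did not pass, and edgeR called no gene in this comparison (0%), where 2788 genes had an unadjusted p under 0.05. DESeq2 called TNF (log2FC 3.89, adjusted p = 0.00199) among 1796 genes. A log2FC at least that of TNF was found for 11.3% of the genes tested, and their median was 0.23, or 0.69 with library totals alone.

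LTA was near the lower end of the series in the same cells. It was 0.365, 0.205 and 0.287 CPM in BD, OD and PJ, from 43, 27 and 28 counts, and 0.146 CPM in DC3F9, from 12 counts (95% Poisson interval 0.0756 to 0.256 CPM, which covers counting error only). The DC3F9 interval reached the level of OD, and the log2FC was 0.49 (SE 1.09, 95% confidence interval -2.35 to 3.33, adjusted p = 0.854, edgeR quasi-likelihood test). OD had 517 TNF counts per LTA count, BD 226, PJ 91.5 and DC3F9 23.3. The 3 lines lay above the 58.1 of the highest tumor, whereas DC3F9 lay inside the tumor range. The cells come from a separate table and their library preparation is given differently by the sources, so this was not tested. TNFRSF13C and HLA-DOB summed to 1.27 to 2.62 CPM in the lines and 2.05 CPM in DC3F9, and the 3 antigen-presenting genes to 8.76 to 461 CPM in the lines and 1646 CPM in DC3F9. TNFRSF13C alone was 1.14 to 2.60 CPM in the lines and 1.74 CPM in DC3F9, beside a median of 1.83 CPM in the tumors.

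Of genes related to TNF signalling, the tables as read here name 3 receptors of the TNF receptor superfamily, 7 signal carriers and 6 NF-kB targets or feedback genes. The 3 receptors, TNFRSF11A, TNFRSF11B and TNFRSF13C, are relatives that bind other ligands of the family, and the receptors of TNF and LTA themselves are not analysed here. Against the 5 controls, 0 of 16 were called higher and 1 lower, beside 0.865% and 1.91% of all genes tested. The lower one was SOD2, the mitochondrial superoxide dismutase (log2FC -3.49, SE 0.43, adjusted p = 1.4e-05, edgeR quasi-likelihood test). SOD2 ranged from 46.6 to 322 CPM in the tumors with a median of 137 CPM, and was 1433, 2611 and 3554 CPM in blood, 139 CPM in spleen and 191 CPM in lung. Blood alone was far above the tumors, and against spleen and lung the log2FC was 0.02 with none of the 16 called. Against blood, SOD2 (log2FC -4.17) and MAPK14, the stress kinase p38 alpha (log2FC -2.33), were called lower, with adjusted p values of 8.91e-09 and 0.000154 (edgeR quasi-likelihood test), and all 18 tumors were below all 3 blood controls in both, as were 7.45% of all genes. Calls lower and higher than blood made up 3.14% and 3.01% of all genes.

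Of these 3 receptors, edgeR called none in any comparison. TNFRSF11A, the receptor RANK, had a log2FC of 0.84 (adjusted p = 0.338) and TNFRSF11B, its decoy osteoprotegerin, of 0.77 (adjusted p = 0.7) against the 5 controls, while the BAFF receptor TNFRSF13C had -0.66 (adjusted p = 0.519, all by the edgeR quasi-likelihood test). Against blood, TNFRSF11A had a log2FC of 2.95 (SE 0.79, adjusted p = 0.00703, edgeR quasi-likelihood test), with 17 of 18 tumors above all 3 blood controls, and missed the cutoff for a call. HS4, lowest in TNF, had 132.5 CPM of TNFRSF11B, while the other 17 tumors had 0.133 to 17.1 CPM. In the cell lines, TNFRSF11A was 42.1, 81.8 and 72.0 CPM in BD, OD and PJ and 15.1 CPM in DC3F9 (log2FC 1.65, adjusted p = 0.304, edgeR quasi-likelihood test).

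Signal carriers and targets had medians below that of all genes against the 5 controls, and SOD2 was the only one called. The median log2FC was -0.45 for the 7 signal carriers and -0.68 for the 6 targets, beside -0.01 for all genes tested. Against spleen and lung the medians were -0.05 for the carriers and 0.26 for the targets, beside 0.08 for all genes, so the targets were then above it. SHARPIN, part of the linear ubiquitin ligase, had the highest log2FC of the carriers, 1.41 (adjusted p = 0.0965), and TNFAIP3, the feedback inhibitor A20, had the highest of the targets, 0.96 (adjusted p = 0.0744, both by the edgeR quasi-likelihood test). TNFAIP3 was 16.5 to 157 CPM in the tumors with a median of 69.8 CPM and 24.3 to 47.4 CPM in the 5 controls, and 13 of 18 tumors were above all controls. In the cell lines TNFAIP3 was 118 to 159 CPM and in DC3F9 141 CPM, so this feedback gene overlapped where TNF did not. IRF1, an interferon-inducible transcription factor, was 32.1, 22.0 and 32.3 CPM in BD, OD and PJ, below the 60.7 CPM of DC3F9 (log2FC -1.55, adjusted p = 0.218, edgeR quasi-likelihood test).

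Within the tumors, the level of TNF was correlated with each of these 16 genes. IRF1 had the highest coefficients, r = 0.49 (permutation test, p = 0.0389) and rho = 0.55 (permutation test, p = 0.0205), with adjusted p values of 0.623 and 0.327 over the 16 relations. TNFAIP3 had r = 0.10 (permutation test, adjusted p = 0.845). No relation of TNF with a receptor, carrier or target passed the adjustment.

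The genes around LTA and TNF were used to see whether the region moved as a block. Of 39 named class III neighbours, 38 were tested in tumors against the 5 controls, 0 were called higher and 2 lower, beside 0.865% and 1.91% of all genes, with a median log2FC of 0.05. The called genes were MPIG6B, a receptor of megakaryocytes and platelets (log2FC -4.86, adjusted p = 1.86e-05), and AGER (log2FC -4.89, adjusted p = 0.000197, both by the edgeR quasi-likelihood test). Of the 18 tumors, 15 were below all 5 controls in MPIG6B and 4 in AGER. AGER was 1982 CPM in the lung control, 4.23 CPM in the spleen control and 14.9 to 23.7 CPM in blood. The nearest named genes on each side had log2FC of 0.04 to 0.46. DDX39B, an RNA helicase, had a log2FC of 0.46, ATP6V1G2, a proton pump subunit, of 0.39, PRRC2A of 0.04 and BAG6, a chaperone, of 0.11, and their adjusted p values were 0.205 to 0.936 (edgeR quasi-likelihood test). SAPCD1 had the highest log2FC, 2.01, and LY6G6F the lowest, -6.65, neither called (adjusted p = 0.0383 and 0.000619, edgeR quasi-likelihood test).

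Against blood, 1 of 38 neighbours was called higher and 3 lower, beside 3.01% and 3.14% of all genes. The lower ones were MPIG6B, LY6G6F and LY6G6C, and the higher one was CYP21A2, a steroid hydroxylase, which was 0.037 to 1.46 CPM in the tumors and at most 0.00678 CPM in blood. Against spleen and lung only AGER was called, and it was lower, as were 0.998% of all genes. In HHS against HS and in lung against liver tumors 0 of 38 neighbours were called, and in HS cell lines against DC3F9 0 of 36. In the cell lines the nearest named genes tested had a log2FC of 0.74 for ATP6V1G2 (SE 1.67, at 0.164 to 2.28 CPM in the lines and 0.427 CPM in DC3F9), 0.30 for DDX39B and 0.35 for PRRC2A, beside 3.93 for TNF and 0.49 for LTA.

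**Figure D5:**
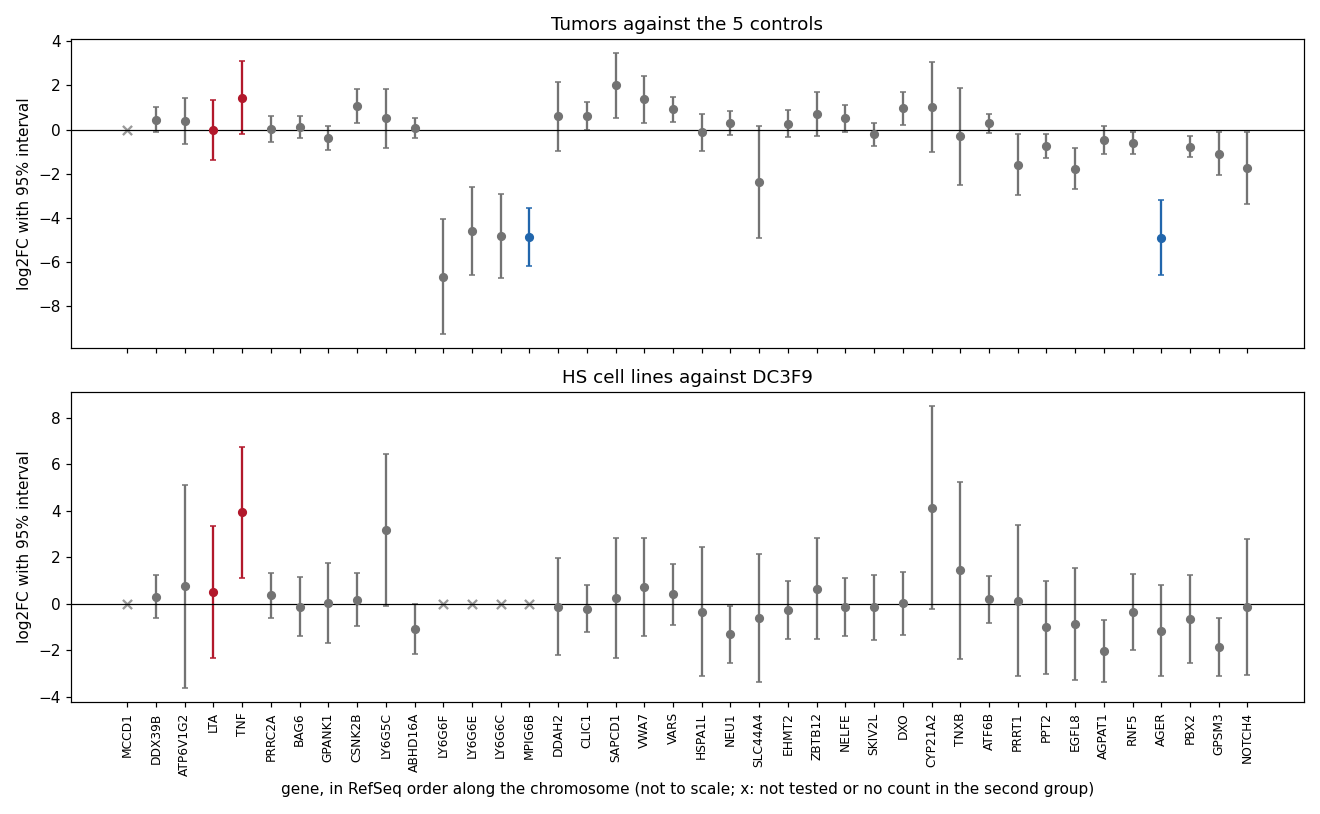
log2FC with 95% confidence intervals of TNF and LTA (red) and their class III neighbours (blue where called, grey otherwise) in RefSeq order, for tumors against the 5 controls (top) and HS cell lines against DC3F9 (bottom). MPIG6B and AGER are the called genes of the upper panel, and in the lower panel TNF (3.93) is above LTA (0.49) and the nearest named genes plotted, ATP6V1G2 (0.74), DDX39B (0.30) and PRRC2A (0.35), with wide intervals.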

How the data were processed

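RNA was measured in 18 tumors, 6 control tissues, 3 HS cell lines and DC3F9. Per the labels and the study's methods, the authors used cutadapt 3.7 for trimming, STAR 2.7.10a for alignment to CanFam3.1 and HTSeq 2.0.0 for counting, and deposited raw counts for 32704 identifiers in separate tables for tissues and cells. The annotation release and strand option are not given in the sources used here, so overlapping genes may share reads. Tissue libraries were stranded and depleted of ribosomal and globin RNA, and the labels and methods name different kits for the cells.

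From the deposited counts, log2FC came from edgeR 4.0.16 in R 4.3.3 (limma 3.58.1 loaded), by its quasi-likelihood test after filterByExpr and TMM scaling, with p-values adjusted by Benjamini-Hochberg over all genes tested within each table. Calls needed a log2FC beyond 1.5 in either direction, with an adjusted p under 0.0005 for tumors against controls and 0.05 otherwise. CPM used library totals, and log2 CPM a prior count of 2. Permutation tests and figures used scipy 1.17.1, matplotlib 3.10.9, pandas 2.3.3 and numpy 2.4.6 under Python 3.11.15, with exact enumeration between groups and 100000 permutations for correlations. The scripts were tested on simulated counts. Alternatives were DESeq2 1.42.0, other size factors and filters, a robust fit, other sets of tumors and controls, and leaving out single libraries. No column of another sample was used, and the closest of 159 library pairs differed by a chi-square of 721 per gene, so none was a duplicate.

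The members and gene lists were chosen with earlier results of these data known. The lists hold only genes named in the supplementary tables as read here, and HSPA1B was left out because it has 2 identifiers. Named genes are the members, all pathway list genes where described, the neighbours nearest to the members, called or at either end of the range, and the 3 genes most like each member. Red cell markers TSPO2 and TRIM58 summed to 3.36 to 28.3 CPM in blood and at most 39.0 CPM in a tumor. Gene order came from RefSeq by symbol and Entrez number, which matched both members, and 38 of the 39 neighbours with 1 identifier were placed. The reads have no molecular identifiers, so that intervals and floors cover only counting error. The p-values measure the spread between dogs for tumors and blood, and between lines for cells. Where controls of several tissues are joined, they also hold the spread between tissues and, with blood among them, between breeds.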

Additional observations from a re-analysis of the deposited data

Results flagged for a closer look

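Among the 5 controls, TNF in the lung control (0.481 CPM) stood apart from the other 4 (5.87 to 13.7 CPM). The gap to the nearest control was 0.745 of the whole range on the log2 scale, above the critical value of Dixon's test at the 95% level. Chance flags about 1 in 20 such checks, and 9 were made. They covered TNF, LTA and their ratio in the 5 controls, the lung tumors and the liver tumors. The 5 controls mix blood, spleen and lung, which the test takes as 1 population. Without this library the log2FC of TNF in tumors was 1.14 against the remaining controls and 0.75 against the spleen control alone.

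LTA moved in opposite directions against the organ controls of 2 sites. Its median was 25.3 times the liver control in the 4 liver tumors and 0.369 times the spleen control in the 2 spleen tumors, with every tumor of a site on the same side of its control. With TMM scaling the ratios were 8.09 and 0.399. Each organ control is 1 library, the share of all genes with such a pattern was not counted, and the difference was not tested. HLA-DOB and TNFRSF13C summed to 1.37 CPM in the liver control, 5.71 to 37.6 CPM in the liver tumors, 109.8 CPM in the spleen control, and 3.18 and 36.7 CPM in the spleen tumors HS29 and HS51, and their part was not tested.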

How the results depend on the processing

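Of 139 alternatives for TNF and LTA, 129 kept the direction and the side of the threshold, 1 crossed it and 9 changed sign. With DESeq2, TNF in HS cell lines against DC3F9 was called (3.89). LTA in tumors against the 5 controls turned positive with the liver control added (0.17) and ranged from -0.29 to 0.26 when single controls were left out, 0.26 without blood control 35116 and 0.25 without the spleen control. LTA against blood ranged from -0.40 to 0.46, with 0.46 without the same blood control. LTA against spleen and lung was -0.13 with library totals only, and -0.76 without the lung control, 2.31 without the spleen control and -0.02 without HS37. In HHS against HS, single HHS tumors moved TNF from -1.20 to 0.04 and LTA from -1.61 to 0.07, positive without HS53 (0.0358 and 0.0653), and TNF was -0.09 without HS37, which is left out of the study's own HS list. Where 1 control library remained, it was assumed to vary like the tumors. The cause of these changes was not tested. Leaving out HS4 or HS37 was chosen after seeing the data and gave 1.52 and 1.14 for TNF against the 5 controls.

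DESeq2 called 1721, 3440 and 832 genes in tumors against the 5 controls, blood, and spleen and lung, where edgeR called 539, 1251 and 222. With only tumors labelled HS edgeR called 336 against the 5 controls and 87 against spleen and lung, with single controls left out 222 to 314 without a blood control, 446 to 710 against blood and 8 without the lung control, and with the liver control added 730 against spleen and lung. Without a low-count filter it called 4 genes in HHS against HS and 28 in the cell lines. No paired analysis was possible because the labels give no replicate numbers shared between groups. LTA had only 12 to 43 counts in the cell libraries, and its SE against DC3F9, 1.09, was close to the 1.08 of TNF.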
